A study of Mus musculus with 12 samples.

Results

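Sez6l2, Rims3 and Adgrg6 are 3 of the 52636 genes counted in 12 RNA libraries of microglia, the macrophages of the brain, grown from mouse pups. They were picked on their measured levels, because full-length neurofilament light chain (NfL) raised each of them over vehicle and also over coiled-coil NfL. All 3 were among the 14687 genes with enough counts to be tested. The cells were wild-type C57BL/6 microglia shaken off mixed glial cultures of newborn brains and kept in serum with 2.5 ng of CSF1 per well in every group. For 24 h they received vehicle, 5 µg of full-length NfL or 5 µg of coiled-coil NfL, with 4 libraries a group. Replicates 1 to 4 of the 3 groups share batches 1 to 4, so that each batch held 1 library of each group. The labels do not say whether a batch was a litter or a culture of its own. The source and purity of the NfL proteins were not stated in the texts used here.

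SEZ6L2 is a membrane protein of neurons that belongs to the seizure-related SEZ6 family. Its outer part is built from CUB and sushi domains, the second of which is also found in regulators of complement. RIMS3 is a short member of the RIM family, scaffold proteins of the presynaptic active zone where vesicles fuse with the membrane. ADGRG6, also called GPR126, is an adhesion G protein-coupled receptor that signals through cyclic AMP. Schwann cells, the myelinating glia of peripheral nerves, need it to form myelin, and collagen IV, laminin and the prion protein are among its ligands. None of the 3 genes is a usual marker of microglia.

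Sez6l2 (ENSMUSG00000030683) lies on GRCm38 chromosome 7, 126950563 to 126970606, on the plus strand. Rims3 (ENSMUSG00000032890) lies on chromosome 4, 120854816 to 120896579, on the plus strand, and Adgrg6 (ENSMUSG00000039116) on chromosome 10, 14402583 to 14545659, on the minus strand. All 3 are protein-coding, with 4210, 7972 and 12228 bases of annotated exon. The RefSeq promoter table for GRCm38.p6 held the starts of Rims3 and Adgrg6. The stretches below are printed for the motifs found in these windows, with GC boxes (CCGCCC, the reverse complement of GGGCGG) of Rims3 and a CRE half-site (TGACG) of Adgrg6 in capitals. The Rims3 stretch is chr4:120854549-120854778 on the plus strand, upstream of the first RefSeq exon.
Rims3 upstream: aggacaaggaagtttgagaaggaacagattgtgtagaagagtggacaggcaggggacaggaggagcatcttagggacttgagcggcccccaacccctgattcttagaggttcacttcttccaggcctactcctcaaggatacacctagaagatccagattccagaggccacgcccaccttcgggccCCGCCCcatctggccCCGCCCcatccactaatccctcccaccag
Adgrg6 before the RefSeq start, chr10:14545037-14545066 on the minus strand: atgaactctcgagaaagggcgTGACGaagg

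Total counts ran from 20162427 to 31048044 per library. The 10 microglial markers, among them Cx3cr1, Csf1r, Aif1, Itgam, Tmem119, P2ry12, Trem2, Tyrobp and C1qa, were all detected. Together they held 11080 to 13102 CPM (counts scaled to a common library size with TMM factors) in vehicle, 9570 to 10978 with full-length NfL and 11533 to 12457 with coiled-coil NfL. Against vehicle, full-length NfL raised 1 of the 10 and lowered 4 (3 and 4 with the batch as a term, called the replicate block here). Of all tested genes, 14.0% were called higher and 10.9% lower (21.4% and 22.4% with the block). Without the block the marker that rose was Aif1, by 1.83 on the log2 scale. Among those that fell were Trem2, by 1.62, and Cx3cr1, by 0.87. Nefl, which encodes NfL, had at most 5 counts in any library. Neuronal transcripts were present at low levels. The 12 neuron markers summed to 31.3 to 102 CPM in vehicle libraries, 16.5 to 48.4 with full-length NfL and 26.7 to 76.2 with coiled-coil NfL.

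Sez6l2 was low in vehicle and coiled-coil cultures and several-fold higher with full-length NfL. In vehicle replicates 1 to 4 it stood at 3.65, 2.64, 2.61 and 2.85 CPM. In the coiled-coil libraries it stood at 2.37, 4.09, 1.61 and 3.61 CPM, from 32 to 126 counts. In the full-length libraries it reached 12.1, 26.8, 9.42 and 16.4 CPM, from 225 to 667 counts. The vehicle and coiled-coil ranges overlapped, whereas the lowest full-length library was 2.30 times the highest of the other 8. The group means were 2.94 ± 0.485 CPM (SD, n = 4) in vehicle, 2.92 ± 1.14 with coiled-coil NfL and 16.2 ± 7.65 with full-length NfL. The log2 difference was 2.46 ± 0.35 (SE) between full-length NfL and vehicle and 2.46 ± 0.34 between the NfL forms, or 5.50-fold and 5.48-fold.

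In the fit of all 12 libraries, Rims3 had the largest log2 difference of the 3 between full-length NfL and vehicle, though its SE range overlapped that of Adgrg6. Without vehicle replicate 1, Adgrg6 had the largest (3.84, against 3.36 for Rims3). Rims3 stood at 5.64, 2.30, 2.09 and 3.03 CPM in vehicle replicates 1 to 4. Coiled-coil replicates 1 to 4 had 4.50, 5.26, 3.96 and 6.45 CPM. Full-length replicates 1 to 4 had 24.4, 33.0, 15.6 and 28.7 CPM, from 372 to 821 counts. Every full-length library was at least 2.41 times every other library, and coiled-coil and vehicle levels overlapped only through vehicle replicate 1. The means were 3.27 ± 1.63 CPM in vehicle, 5.05 ± 1.08 with coiled-coil NfL and 25.4 ± 7.44 with full-length NfL (SD, n = 4). The log2 difference was 2.96 ± 0.32 against vehicle (7.79-fold) and 2.33 ± 0.31 against coiled-coil NfL (5.02-fold).

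Adgrg6 was nearly silent in 3 of the 4 vehicle libraries. Its vehicle levels were 4.64, 1.05, 0.884 and 0.648 CPM in replicates 1 to 4, from 107, 25, 22 and 15 counts. The coiled-coil libraries had 3.28, 2.18, 2.96 and 3.34 CPM, and the full-length libraries 10.9, 14.1, 15.1 and 9.49 CPM. The lowest full-length library was 2.04 times the highest other one, which was vehicle replicate 1. The means were 1.81 ± 1.90 CPM in vehicle, 2.94 ± 0.535 with coiled-coil NfL and 12.4 ± 2.63 with full-length NfL (SD, n = 4). The log2 difference was 2.78 ± 0.50 against vehicle (6.87-fold) and 2.08 ± 0.48 against coiled-coil NfL (4.22-fold).

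**Figure D1:**
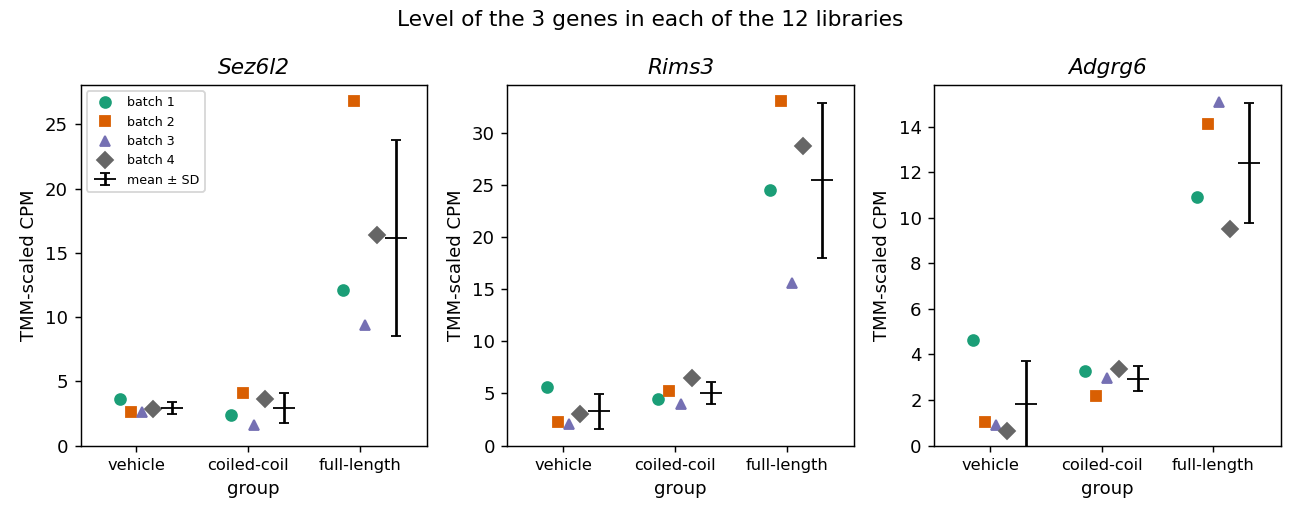
Level of Sez6l2, Rims3 and Adgrg6 in TMM-scaled CPM (vertical axes) in each of the 12 libraries by group, with the symbol giving the batch and the black bar the mean ± SD of 4 libraries (the lower bar of Adgrg6 in vehicle is cut at 0). All 4 full-length libraries lie above the other 8 for each gene, and for Adgrg6 vehicle replicate 1 (4.64 CPM) stands above the other vehicle libraries (0.648 to 1.05 CPM).

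Per kilobase of exon, which allows levels to be compared between genes, the order of the means was Sez6l2, Rims3, Adgrg6 in all 3 groups. Full-length means were 3.84 ± 1.82 CPM per kilobase for Sez6l2, 3.19 ± 0.933 for Rims3 and 1.01 ± 0.215 for Adgrg6 (SD, n = 4). Sez6l2 and Rims3 did not differ beyond their spread on this scale. Vehicle means were 0.698 ± 0.115, 0.41 ± 0.205 and 0.148 ± 0.155 in the same order, with the SD ranges of neighbours overlapping.

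These differences chose the genes, so they are a description and no test is attached to them. By size, Rims3 ranked 33, Adgrg6 38 and Sez6l2 54 from the top among the 14687 genes in full-length NfL against vehicle. Against coiled-coil NfL, Sez6l2 ranked 9, Rims3 11 and Adgrg6 23. With edgeR's quasi-likelihood test at an adjusted p of 0.05, 14.0% of tested genes were called higher and 10.9% lower in full-length NfL than in vehicle. The higher ones were 56.4% of these calls, and 45.8% with upper-quartile scaling. Between the NfL forms 1.38% were called higher and 1.34% lower with full-length NfL. Both full-length contrasts called 201 genes higher, or 1.37% of those tested, and the 2 contrasts share the full-length libraries. With the replicate block, 21.4% of tested genes were called higher and 22.4% lower against vehicle, and 8.99% and 10.1% between the NfL forms. In 6.16% of tested genes every full-length library lay above every other library, as in these 3.

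Ranked by the smaller of the 2 log2 differences, Sez6l2 came at 5 of the 201, Rims3 at 7 and Adgrg6 at 10. Just above Sez6l2 stood Susd2 (2.48), a sushi-domain protein, and A930003A15Rik (2.47). Cd300e (2.35), an activating receptor of myeloid cells, lay between Sez6l2 and Rims3. Nos2 (2.12), the inducible nitric oxide synthase, and Zfp811 (2.11) lay between Rims3 and Adgrg6. Siglece (1.98), an inhibitory sialic acid receptor, and Gm21984 (1.93) followed. The call between the NfL forms was lost for each of these 7 neighbours without full-length replicate 2 or 4, and for all but A930003A15Rik also without coiled-coil replicate 3 (1.66 to 2.66 over all such fits). It was lost as well without coiled-coil replicate 1 (Cd300e, Nos2, Siglece, Gm21984), coiled-coil replicate 4 (Susd2, Nos2, Siglece, Gm21984), vehicle replicate 4 (Cd300e), or vehicle replicate 1 or 2 or coiled-coil replicate 2 (Gm21984). For Gm21984 it was also lost with upper-quartile scaling (1.90) and with no filter on counts (1.95). With the replicate block and all 12 libraries, all 7 neighbours were called between the NfL forms (edgeR adjusted p of 0.000147 to 0.0105). So were all 201 genes, so this sets the 7 apart in nothing. A place among the 201 genes is part of how the 3 were picked and tests nothing. Adgrg6 lost that place in 8 of the 12 fits that left out 1 library, where its log2 difference between the NfL forms was 1.96 to 2.19. Those 8 fits lacked any 1 of the 4 coiled-coil libraries, full-length replicate 2, 3 or 4, or vehicle replicate 2.

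**Figure D2:**
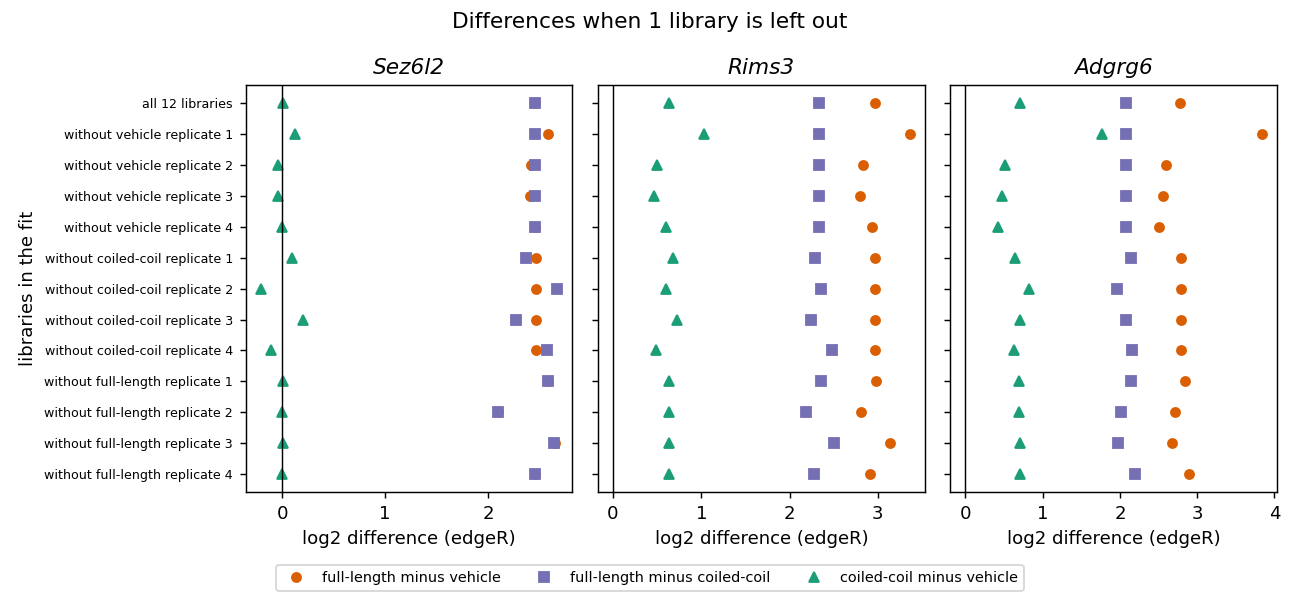
Log2 differences of the 3 genes (horizontal axes) in edgeR fits of all 12 libraries and of 11 libraries with each one left out in turn (rows), for the 3 comparisons between groups. The largest shift is that of Adgrg6 without vehicle replicate 1, where full-length minus vehicle goes from 2.78 to 3.84 and coiled-coil minus vehicle from 0.70 to 1.76.

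Coiled-coil NfL against vehicle gave log2 differences of 0.004 to 0.70 for the 3 genes, with overlapping 95% intervals. Whether the genes differ from each other was not tested, and the values of Rims3 and Adgrg6 moved with 1 vehicle library. No gene of the 14687 was called between coiled-coil NfL and vehicle, higher or lower (0.0% each), so the lack of a call there says nothing about these 3. At an unadjusted p under 0.05 that contrast held 675 higher and 407 lower genes by edgeR, and DESeq2 called 14 and 3 after adjustment. The coiled-coil minus vehicle difference of Sez6l2 was 0.004 ± 0.34 on the log2 scale, with a 95% interval of −0.74 to 0.75. That of Rims3 was 0.63 ± 0.32 (−0.06 to 1.32) and that of Adgrg6 0.70 ± 0.50 (−0.38 to 1.79). As a share of the log2 difference between full-length NfL and vehicle, these were 0.156%, 21.4% and 25.3%. Over the 201 genes the median share was 28.3%, and coiled-coil NfL stood above vehicle in 195 of them. Their median coiled-coil minus vehicle log2 difference was 0.19, against 0.004 for all tested genes. The 201 were picked on these same vehicle and coiled-coil libraries, so these values describe them and test nothing.

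Within batches, full-length NfL exceeded both other groups for all 3 genes in 4 of 4 batches. That follows from every full-length library lying above every other library, as in 6.16% of tested genes. The 3 genes were picked for such a pattern, so it tests nothing. Sez6l2 was 3.32, 10.2, 3.61 and 5.74 times its vehicle level in batches 1 to 4 and 5.11, 6.55, 5.87 and 4.53 times its coiled-coil level. Rims3 was 4.33, 14.3, 7.45 and 9.48 times its vehicle level and 5.43, 6.27, 3.93 and 4.45 times its coiled-coil level. Adgrg6 was 2.35, 13.5, 17.1 and 14.6 times its vehicle level and 3.32, 6.48, 5.09 and 2.84 times its coiled-coil level. The ratio to coiled-coil NfL varied less from batch to batch than the ratio to vehicle for each gene.

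Coiled-coil NfL against vehicle had no common direction for Sez6l2, with ratios of 0.649, 1.55, 0.615 and 1.27 in batches 1 to 4. For Rims3 the ratio was 0.798 in batch 1 and 2.29, 1.90 and 2.13 in batches 2 to 4. For Adgrg6 it was 0.707 in batch 1 and 2.08, 3.35 and 5.15 in batches 2 to 4. Both genes thus stood higher with coiled-coil NfL than with vehicle in 3 of 4 batches, and lower in the batch of vehicle replicate 1.

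Vehicle replicate 1 carried 5.40 times the mean of the other vehicle libraries for Adgrg6, 2.28 times for Rims3 and 1.35 times for Sez6l2. Without it, the vehicle means were 0.86 ± 0.201, 2.47 ± 0.491 and 2.70 ± 0.132 CPM (SD, n = 3). In batches 2 to 4 every coiled-coil library of Rims3 (at least 3.96 CPM) and of Adgrg6 (at least 2.18 CPM) lay above every vehicle library (at most 3.03 and 1.05 CPM). How many of all tested genes separate in the same way was not counted, so no result is drawn from this. A fit without vehicle replicate 1 kept the full-length and coiled-coil libraries of batch 1. In it, the log2 difference of coiled-coil NfL from vehicle was 1.03 for Rims3, 1.76 for Adgrg6 and 0.13 for Sez6l2. That fit called 0 genes higher and 0 lower between coiled-coil NfL and vehicle. Full-length NfL against vehicle was 3.36, 3.84 and 2.58 in the same fit and order. The library left out, and with it batches 2 to 4, was singled out after its values were seen. Vehicle replicate 1 was the highest vehicle library for 26.4% of tested genes and for 36.3% of the 201, and vehicle replicate 3 for 35.7% and 48.8%.

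**Figure D3:**
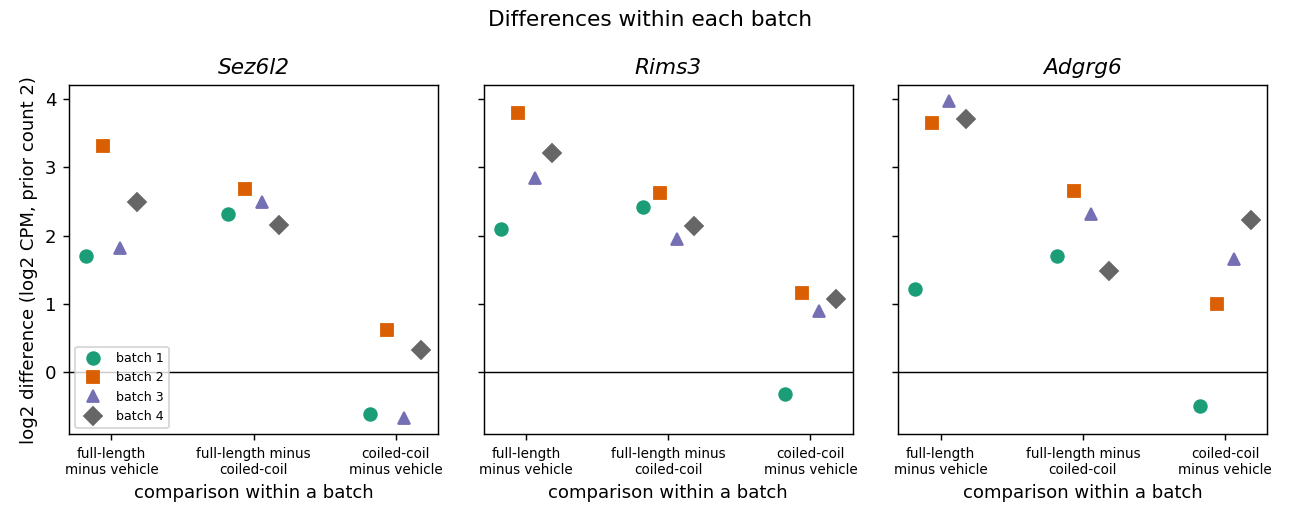
Log2 differences between the libraries of 1 batch (vertical axis, log2 CPM with a prior count of 2) for Sez6l2, Rims3 and Adgrg6 in the 3 comparisons, with the symbol giving the batch. Every full-length difference is above 0, and coiled-coil minus vehicle of Rims3 and Adgrg6 is above 0 in batches 2 to 4 and below 0 in batch 1.

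The 3 genes did not vary as 1 unit among the full-length libraries. Sez6l2 and Rims3 were both highest in batch 2, then in batches 4, 1 and 3. Adgrg6 was highest in batch 3 and lowest in batch 4. Over the 12 libraries the log2 levels of Sez6l2 and Rims3 had a Pearson r of 0.94, Rims3 and Adgrg6 0.92, and Sez6l2 and Adgrg6 0.79. With the mean of each group removed these became 0.74, 0.55 and 0.14. The libraries share batches and the genes were chosen for the group pattern, so these values describe likeness only.

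The genes most like each of the 3 over the 12 libraries, among those of at least 1 CPM and without predicted genes, had smaller differences than the 3 themselves. Sez6l2 was most like Sema4c (r = 0.97), a membrane semaphorin, Dtx2 (0.96), a regulator of Notch signalling, and the hexokinase genes Hk2 (0.96) and Hk3 (0.96). Their log2 differences between full-length NfL and vehicle were 0.68 to 0.89. Rims3 was most like St7 (0.97), Cox17 (0.97), a copper chaperone of the respiratory chain, the malate dehydrogenase gene Mdh2 (0.97) and Slc35g1 (0.97). Slc35g1 differed by 1.61 and St7 by 1.20, and Cox17 and Mdh2 by 0.60 and 0.58. Adgrg6 was most like Fam114a1, Fgd6, Acot7 and Vmp1 (0.94 to 0.95), of which the acyl-CoA thioesterase gene Acot7 differed by 2.07 and the others by 0.62 to 0.79. With group means removed, r was 0.81 to 0.87 for the genes like Sez6l2, 0.77 to 0.89 for those like Rims3 and 0.67 to 0.77 for those like Adgrg6.

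The paralogs of Sez6l2 went the other way in their means. Sez6 averaged 9.86 ± 3.84 CPM in vehicle cultures, 4.94 ± 2.64 with full-length NfL and 6.86 ± 2.97 with coiled-coil NfL (SD, n = 4). Its log2 difference between full-length NfL and vehicle was −0.99 ± 0.50 (edgeR adjusted p = 0.164), and it was called lower once the batch was a term (adjusted p = 0.000655 with the replicate block). Sez6l, with 3.41 ± 1.69 CPM in vehicle, differed by −0.83 ± 0.58 (adjusted p = 0.309, and 0.00345 with the replicate block).

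Of 16 tested genes of the SEZ6 family and other CUB or sushi proteins, 2 were higher and 2 lower with full-length NfL than with vehicle (4 and 8 with the replicate block). The counts without the block are near the shares over all tested genes, 14.0% higher and 10.9% lower (21.4% and 22.4% with the block). Their median log2 difference was −0.76, against −0.02 for all tested genes. Susd2 rose from 0.657 ± 0.416 to 4.9 ± 2.68 CPM, a log2 difference of 2.90 ± 0.48 (edgeR adjusted p = 0.00206), and stood at 0.873 ± 0.417 CPM with coiled-coil NfL. It was the 1 gene of this list called between the NfL forms (2.48, adjusted p = 0.0231), where the replicate block called 2 higher and 2 lower (8.99% and 10.1% over all tested genes). The call of Susd2 was lost without full-length library 2 or 4 or coiled-coil library 3 or 4 (2.38 to 2.66). Cd55, a membrane regulator of complement, rose by 4.25 ± 0.74 from 0.364 ± 0.425 CPM, and by 5.47 without vehicle replicate 1. The semaphorin receptor gene Nrp1 fell by 0.81 ± 0.18 (adjusted p = 0.00771).

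Among 14 tested genes of sheddases and partners of the SEZ6 family, 2 rose and 2 fell (2 and 7 with the replicate block), with a median of −0.39. The counts without the block are again near the 14.0% and 10.9% over all tested genes (21.4% and 22.4% with it). Bace1, the beta-secretase that sheds SEZ6 proteins, fell by 0.32 ± 0.07 from 23.6 CPM (adjusted p = 0.00968). Ncstn, which encodes nicastrin of the gamma-secretase complex, rose by 0.37 ± 0.08 (adjusted p = 0.00843). Ctsd, the gene of the lysosomal protease cathepsin D, fell by 0.46 ± 0.10 from 10370 CPM (adjusted p = 0.00765). None of the 14 was called between the NfL forms. With the replicate block 1 was higher and 3 lower there, against 8.99% and 10.1% of all tested genes. Those lower included Bace1 (edgeR adjusted p = 0.0197) and Ctsd (adjusted p = 0.0315).

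The RIM paralogs of Rims3 had means on the other side of vehicle as well. Rims1 had means of 0.722 ± 0.261 CPM in vehicle and 0.429 ± 0.209 under full-length treatment (−0.73 ± 0.46, edgeR adjusted p = 0.264, and 0.0739 with the replicate block). Rims2 had 1.15 ± 0.501 and 0.734 ± 0.455 CPM (−0.63 ± 0.53, edgeR adjusted p = 0.407, and 0.0808 with the replicate block). Rims4 had 0 to 14 counts per library, too few for a test.

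Of 19 tested genes of the active zone scaffold, 1 rose and 5 fell with full-length NfL (1 and 12 with the replicate block), with a median of −0.72. All tested genes had 14.0% higher and 10.9% lower (21.4% and 22.4% with the block). The gene that rose was Ppfia3, which encodes liprin-alpha-3, a scaffold that recruits RIM proteins. It went from 1.82 ± 1.33 to 7.02 ± 3.6 CPM, a log2 difference of 1.95 ± 0.48 (edgeR adjusted p = 0.0124), with 2.13 ± 0.626 CPM in the coiled-coil group. Without vehicle replicate 1 the difference was 2.58. The vesicle priming genes Unc13a and Unc13b fell by 0.66 ± 0.16 and 0.69 ± 0.17, and the calcium channel gene Cacna1d by 0.76 ± 0.17. Erc1, which encodes another active zone scaffold, fell by 0.36 ± 0.09, a call lost without vehicle replicate 2 or 4 or without the full-length libraries 2 or 4 (−0.34 to −0.32). No gene of this list was called between the NfL forms, and 1 was higher and 5 lower there with the replicate block (8.99% and 10.1% of all tested genes).

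Of 24 tested genes of regulated exocytosis, 6 rose and 1 fell (7 and 7 with the replicate block), with a median of −0.12. The shares over all tested genes were 14.0% and 10.9% (21.4% and 22.4% with the block). Syt7, a calcium sensor of slow vesicle release and lysosome exocytosis, rose most among the named genes of the list. It went from 0.512 ± 0.386 to 6.41 ± 4.45 CPM, a log2 difference of 3.64 ± 0.65 (edgeR adjusted p = 0.00296), and stood at 0.976 ± 0.434 CPM with coiled-coil NfL. Without vehicle replicate 1 the difference was 4.30. It headed the ranking of the 201 genes (2.69 against coiled-coil NfL, adjusted p = 0.0417). That call was lost without any 1 of the 4 coiled-coil libraries, vehicle replicate 2 or 4, or full-length replicate 2 or 4 (2.17 to 2.88). With the replicate block, which called all of the 201 genes, its edgeR adjusted p between the NfL forms was 0.000972.

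The syntaxin genes Stx11 and Stx4a rose by 0.62 ± 0.18 and 0.26 ± 0.07. The call of Stx11 was lost without vehicle library 2 or 4 or full-length library 2 or 3 (0.49 to 0.63). The call of Stx4a was lost without vehicle library 2 or 4 or full-length library 2 or 4 (0.22 to 0.25). Syt11 fell by 0.54 ± 0.15, a call lost without vehicle library 2 or 4 or full-length library 2 (−0.52 to −0.44).

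**Figure D4:**
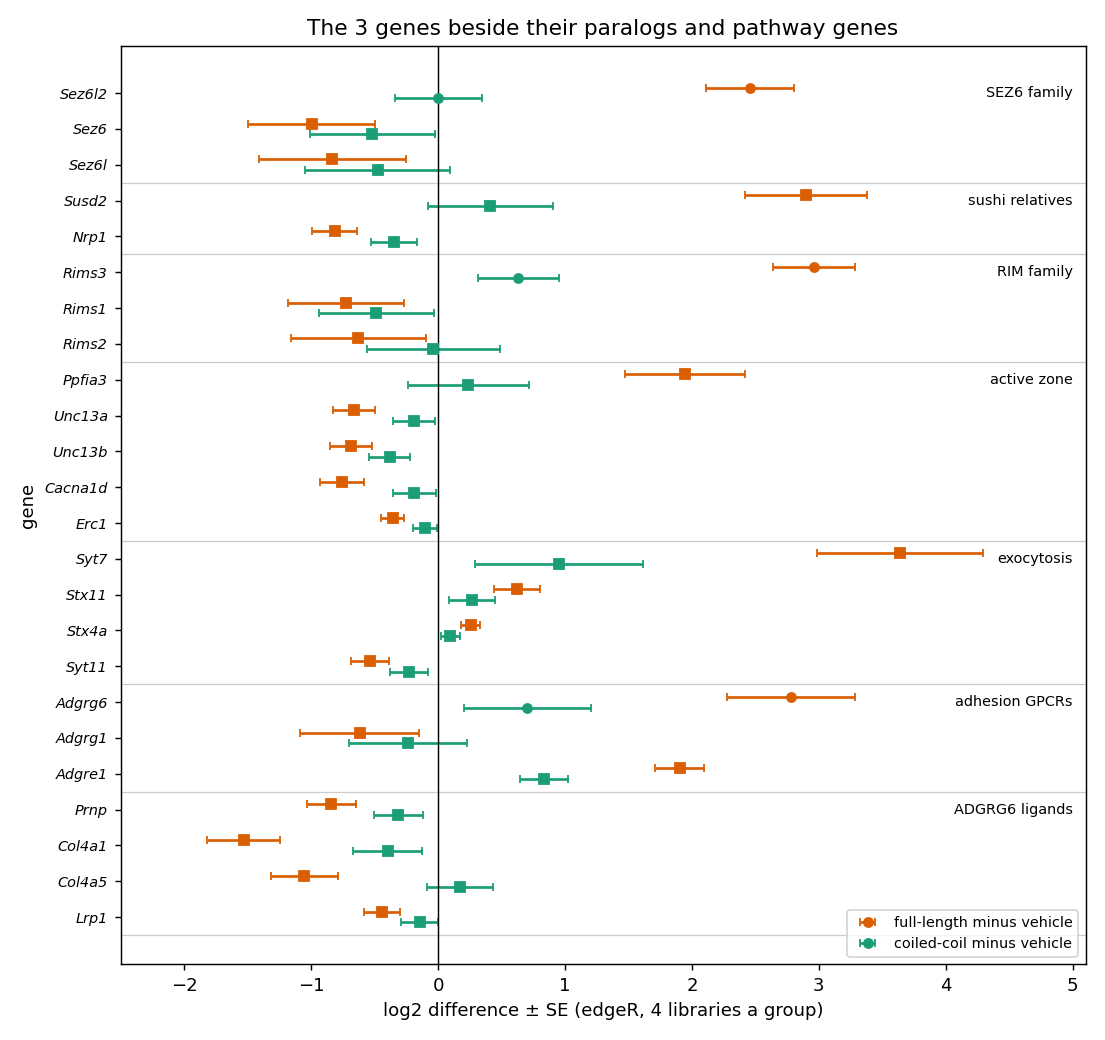
Log2 difference ± SE (horizontal axis) of full-length NfL and of coiled-coil NfL from vehicle for Sez6l2, Rims3 and Adgrg6 (circles) and for genes of their families and pathways (squares), in groups of genes (vertical axis). The 3 genes lie at 2.46 to 2.96 with full-length NfL while their tested paralogs Sez6, Sez6l, Rims1, Rims2 and Adgrg1 lie at −0.99 to −0.62. None of these paralogs was called without the batch as a term, and Rims1 and Rims2 were not called with it either.

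Of the other adhesion receptors, 15 of 29 had enough counts for a test. Among them 1 was higher and none lower with full-length NfL (1 and 7 with the replicate block), against 14.0% and 10.9% of all tested genes (21.4% and 22.4% with the block). The median of the list was −0.60. The one that rose was Adgre1, which encodes the macrophage marker F4/80. It went from 2166 ± 199 to 8095 ± 932 CPM (1.90 ± 0.20, edgeR adjusted p = 0.000386), and stood at 3859 ± 1128 with coiled-coil NfL. Its difference between the NfL forms was 1.07 (edgeR adjusted p = 0.0215, and 0.0030 with the replicate block). Without the block that call was lost without full-length library 2 or 4 or coiled-coil library 3 (1.02 to 1.06). Adgrg1, of the same receptor subfamily, differed by −0.62 ± 0.47 (adjusted p = 0.353, and 0.00501 with the replicate block). Adgrg2 and Adgrg3 had at most 1 count in any library and Adgrg5 had 0 in all.

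The list of ADGRG6 ligands also holds the receptor gene Lrp1. Of its 7 tested genes, 4 fell and none rose with full-length NfL (6 and 0 with the replicate block), with a median of −0.84. Of all tested genes 10.9% fell and 14.0% rose (22.4% and 21.4% with the block). The prion protein gene Prnp fell by 0.84 ± 0.19 from 45.7 ± 7.63 CPM (edgeR adjusted p = 0.00934). The collagen IV genes Col4a1 and Col4a5 fell by 1.53 ± 0.29 and 1.05 ± 0.27. Lrp1 fell by 0.44 ± 0.14, a call lost without any 1 of the 4 full-length libraries, vehicle replicate 1, 2 or 4, or coiled-coil replicate 2 or 4 (−0.50 to −0.35), and with no filter on counts (−0.43). Between the NfL forms, the replicate block called 4 genes of this list lower, against 10.1% of all tested genes (1.34% without the block). Without the block the 1 call was that of Col4a5, lower with full-length NfL (−1.22, edgeR adjusted p = 0.0386, and 0.000731 with the block). The unblocked call of Col4a5 was lost without library 2, 3 or 4 of full-length NfL, 1 or 4 of coiled-coil NfL, or 2 or 4 of vehicle (−1.22 to −1.05).

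Of 30 tested genes of cyclic AMP signalling, 1 rose and 5 fell with full-length NfL (3 and 13 with the replicate block), with a median of −0.19. That compares with 14.0% and 10.9% of all tested genes (21.4% and 22.4% with the block). Adcy7, an adenylyl cyclase of blood and immune cells, rose by 0.53 ± 0.11 from 338 to 488 CPM (edgeR adjusted p = 0.00486). Adcy9 fell by 0.50 ± 0.11 and the phosphodiesterase gene Pde3b by 0.61 ± 0.11. Adcy6 fell by 1.54 ± 0.45, a call lost without vehicle library 1, 2 or 4 or full-length library 2 or 4 (−1.67 to −1.36). Pde4d fell by 1.26 ± 0.38, a call lost without vehicle library 1 or 4 or full-length library 2, 3 or 4 (−1.23 to −1.08). Between the NfL forms, Pde3b was called lower (−0.47, edgeR adjusted p = 0.0451, and 0.00679 with the block). The block called 1 gene of this list higher and 4 lower there, against 8.99% and 10.1% of all tested genes. The unblocked call of Pde3b held only where vehicle replicate 3 was the library left out, and the value was −0.51 to −0.36 without each of the 11 others. It was also lost with upper-quartile scaling (−0.49) and with no filter on counts (−0.45).

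Markers of other cells moved beside these lists, and their part in the results was not tested. In bulk RNA, fewer cells of a type and less RNA per cell cannot be told apart. Of 9 tested neuron markers, 2 fell and none rose with full-length NfL (8 and 0 with the replicate block), against 10.9% and 14.0% of all tested genes (22.4% and 21.4% with the block). Their median was −1.19. The medians of the other non-microglial lists with tested genes ran from −0.75 (border macrophage) to −0.23 (endothelial cell). That of the microglial markers was −0.14, against −0.02 for all tested genes. The 8 Schwann cell markers summed to 402 to 471 CPM in vehicle libraries, 218 to 275 with full-length NfL and 337 to 357 with coiled-coil NfL. Of 6 tested, none rose and 1 fell (1 and 3 with the replicate block). The 9 astrocyte markers summed to 26.0 to 57.8, 23.8 to 37.5 and 24.1 to 52.3 CPM in the same order, with 1 of 9 lower (7 with the replicate block) and none higher. The 10 oligodendrocyte lineage markers summed to 243 to 278, 250 to 264 and 241 to 297 CPM, with 1 of 9 tested higher and none lower (2 and 5 with the replicate block). The 7 fibroblast markers summed to at most 20.6 CPM in any library and the 7 endothelial markers to at most 102, with Dpt and Cldn5 at 0 in all libraries. None of 4 tested fibroblast markers was called (1 lower with the replicate block), and 1 of 5 endothelial ones rose and 1 fell, also with the block. The 7 border macrophage markers summed to 1149 to 2181 CPM in vehicle libraries, 1094 to 1582 with full-length NfL and 1174 to 1947 with coiled-coil NfL, with 2 of 6 tested lower and none higher (3 and 2 with the replicate block). The 7 lymphocyte markers reached at most 0.477 CPM together, with 4 of them at 0, among them Cd3e, Cd3d and Ncr1.

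Genes next to the 3 on the chromosome differed by −0.62 to 0.50 between full-length NfL and vehicle. Around Sez6l2, Kctd13 (4932 bases before it) differed by 0.31 ± 0.14 (edgeR adjusted p = 0.117, and 0.0296 with the replicate block) and Cdiptos (1116 bases after it) by −0.38 ± 0.34. Cdipt, 5308 bases after it, rose by 0.44 ± 0.08 (adjusted p = 0.00417). Tmem219, 27646 bases before it, rose by 0.50 ± 0.17. The call of Tmem219 was lost without library 1, 2 or 4 of vehicle, 2, 3 or 4 of full-length NfL, or 3 or 4 of coiled-coil NfL (0.43 to 0.50), and with upper-quartile scaling (0.44). Around Rims3, none of Nfyc, Ctps, Exo5 and Zfp69 was called (−0.62 to 0.49), though Ctps was with the replicate block (adjusted p = 0.0434). Around Adgrg6, Vta1 rose by 0.28 ± 0.08, a call lost without vehicle library 1, 2 or 4 or full-length library 2 or 4 (0.23 to 0.29), and Aig1 fell by 0.59 ± 0.16, a call lost without full-length replicate 4 (−0.50). Hivep2 and Gm16234 were not called (0.28 and 0.50), and Hivep2 was with the replicate block (adjusted p = 0.00636).

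One overlapping transcript had the pattern of Sez6l2. Gm21984 runs from the Kctd13 locus into Sez6l2 on the same strand and shares 413 of its 822 exon bases with Sez6l2, or 9.81% of the exon bases of Sez6l2. It had 3 to 45 counts per library and means of 0.256 ± 0.157 CPM in vehicle, 0.349 ± 0.0835 with coiled-coil NfL and 1.37 ± 0.70 with full-length NfL. Reads from the shared exons cannot be assigned to 1 of the 2 genes, and how they were counted is not stated. Over Adgrg6, Gm46212 on the other strand shares 441 exon bases and had 21 counts in all libraries together, and Gm10335 had 2.

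In the 250 bases before the RefSeq start, Rims3 had 59.6% G and C and 6 CpG pairs, and Adgrg6 69.6% and 32. Over 32851 promoters of the table the medians were 52.4% and 6. On both strands, 8 motifs were searched. The GC box GGGCGG was found 3 times before Rims3 (2 of them in the stretch printed above) and 2 times before Adgrg6, and in 32.7% of all promoters. The CRE half-site TGACG, part of the cyclic AMP response element, was found once before Adgrg6, 9 bases from the start, and in 17.8% of all promoters. That part of Adgrg6 lies in the first exon of a longer annotated transcript. The whole Adgrg6 window lies inside the annotated gene, whose edge is 623 bases from the RefSeq start. The end of the Rims3 window, with the GC box that is not printed, also lies past an earlier annotated RefSeq start. Neither window held the CCAAT box (CCAAT, in 33.8% of promoters), the TATA box (TATAAA, 12.4%), the AP-1 site (TGANTCA, 6.75%) or the PU.1 core (GAGGAA, 23.3%). The kappaB site GGGANTTTC (0.941% of promoters) and the GAS site TTCNNNGAA (7.02%) were not found in them either. These matches are letters in a window and say nothing of binding.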

How the data were processed

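The authors deposited 1 table of raw counts for 52636 Ensembl gene identifiers in 12 libraries. Reads of 50 bases were aligned to GRCm38 with GSNAP, per the submitters' processing notes; how reads were counted, on which annotation and with what strand setting, is not given in the sources used here. Symbols, positions and exon lengths were taken from GENCODE M21 (99.6% of identifiers matched). Genes were kept with edgeR's filterByExpr (14687 kept, 37949 removed) and scaled with TMM. The 12 libraries entered a single quasi-likelihood fit of 3 groups with 9 residual degrees of freedom (R 4.3.3, edgeR 4.0.16), with two-sided tests and Benjamini-Hochberg adjustment over all tested genes. The SE of a log2 difference is its size over the square root of F, and intervals are at 95%. The fit was tested on simulated counts drawn without batch effects, so that test says nothing of how the shared batches affect the calls. Where nothing says that samples came from separate animals, p-values reflect the spread between samples, which may be technical.

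The replicate number is the labelled batch. Same-numbered libraries, with group means removed, correlated at 0.307 to 0.735 (12 of 12 pairs over 0.1) and others at −0.461 to 0.445. The main fit has no batch term, as no methods text used here stated one. Its SEs, intervals and calls, and those of the fits with a library left out, therefore ignore the shared batches. A call missing or lost there can be present with the block. The model with this block is an alternative, as are DESeq2 1.42.0, other scalings, no filter, and each library left out.

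The 3 genes and the 7 pathway and 9 marker lists were chosen with earlier results of these data known. Named are the 3 genes, their paralogs and neighbours, and the genes ranked next to them. From each pathway list the rule takes up to 4 called genes of smallest p in the main direction against vehicle and 2 in the other (2 and 1 between NfL forms), and for each of the 3 genes the 4 most correlated genes. A few genes this takes are not reported here.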

Additional observations from a re-analysis of the deposited data

Results flagged for a closer look

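In 18 of 216 groups of 4 libraries of the named genes, 1 library stood apart from the other 3 by more than Dixon's 95% limit; chance gives about 1 in 20. Vehicle replicate 1 stood above the other vehicle libraries for Adgrg6 (4.64 CPM, against 0.648 to 1.05), Cd55 (0.998), Siglece (18.6) and Syt7 (1.08). Batch 3 stood above the other batches for P2ry12 in each group, at 64.2 CPM in vehicle, 56.7 with full-length NfL and 59.7 with coiled-coil NfL. Vehicle replicate 3 stood high for Aif1 (236 CPM) and low for Sez6l (0.884). Full-length replicate 3 stood low for Adcy6 (0.293 CPM), Mdh2 (206) and Slc35g1 (22.3), full-length replicate 1 high for Susd2 (8.90) and full-length replicate 4 high for Cdiptos (1.56). Coiled-coil replicate 1 stood high for Trem2 (646 CPM) and Pde4d (5.50), and coiled-coil replicate 3 low for Adgrg1 (3.26) and Ppfia3 (1.20). No library of Sez6l2 or Rims3 passed that limit.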

How the results depend on the processing

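Full-length minus vehicle and full-length minus coiled-coil kept their direction for Sez6l2, Rims3 and Adgrg6 in all 17 alternatives, a direction that the choice of these genes fixes. Among these differences, the only shift larger than the spread between replicates was that of Adgrg6 against vehicle, which was 2.51 to 3.84 with single libraries left out (3.84 without vehicle replicate 1). With the replicate block, 3148 genes were called higher and 3284 lower in full-length NfL than in vehicle, against 2062 and 1594 without it. Between the NfL forms the block gave 1321 and 1485 against 202 and 197, and DESeq2 728 and 579. Coiled-coil NfL against vehicle gave 1 and 1 with the block, 14 and 3 with DESeq2 and 0 to 18 and 0 to 8 with single libraries left out. Leaving out single libraries gave 992 to 1735 lower genes against vehicle, and 14 to 324 higher and 18 to 277 lower between the NfL forms. The genes higher in both full-length contrasts, 201 in the main model, were 1276 with the block, 707 with DESeq2 and 14 to 320 with single libraries left out, fewest without full-length replicate 2. The higher genes were 56.4% of calls against vehicle with TMM and 45.8% with upper-quartile scaling. The causes were not tested. Adgrg6 in vehicle rests on 15 to 25 counts in 3 libraries, which limits the precision of its fold.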
